A study of Mus musculus with 12 samples.

Results

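Livers of mice that ate an HFHS diet, rich in fat and sugar, and received calcitriol liposomes were compared with livers titled CNT. The question was which differences from CNT remain under calcitriol and which arise with it. The comparison rests on 6 of the 12 whole-liver RNA sequencing libraries of the series, 3 titled HFHS_Calcitriol and 3 titled CNT. The 3 libraries titled HFHS were used to sort the differences. Values were given for 22381 genes, and the 12637 with a value of at least log2 of 10 (3.32) in 3 or more of the 12 libraries were tested.

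All mice were females of the inbred C57BL/6 strain. The calcitriol group ate the HFHS diet for 14 weeks, which is used to bring about a fatty and inflamed liver, and received liposomes loaded with calcitriol into a vein at weeks 12 and 13. Tissue was collected 2 weeks after treatment began. The HFHS group ate the same diet for 14 weeks without treatment, and a curcumin group received curcumin liposomes at the same weeks as calcitriol. The labels give the CNT group the same strain, tissue and HFHS diet as the others, and the sources used here do not say how it differs, so CNT stands for the title alone. Livers given empty liposomes were not analysed here, so calcitriol cannot be told apart from the injections and the liposomes. Whether libraries of 1 group come from different mice is not stated in the titles. The p-values thus reflect the spread among these samples, which may be technical. All values are deposited log2 expression levels. The sequencing depth behind them is unknown, and in whole liver fewer cells of a type and less RNA per cell cannot be told apart.

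Calcitriol is the hormonally active form of vitamin D. It acts through the vitamin D receptor, a nuclear receptor that is scarce in hepatocytes and more abundant in other liver cells, and it strongly induces Cyp24a1, the enzyme that breaks calcitriol down, in tissues that respond to it. Fat in the liver is handled by pathways under separate control. SREBP factors drive the enzymes of fatty acid and sterol synthesis, PPARA drives fatty acid oxidation, and PPARG drives fatty acid uptake and storage in droplets. Metallothioneins are small proteins that bind zinc and copper and respond to metals, glucocorticoids and inflammation.

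**Figure D1:**
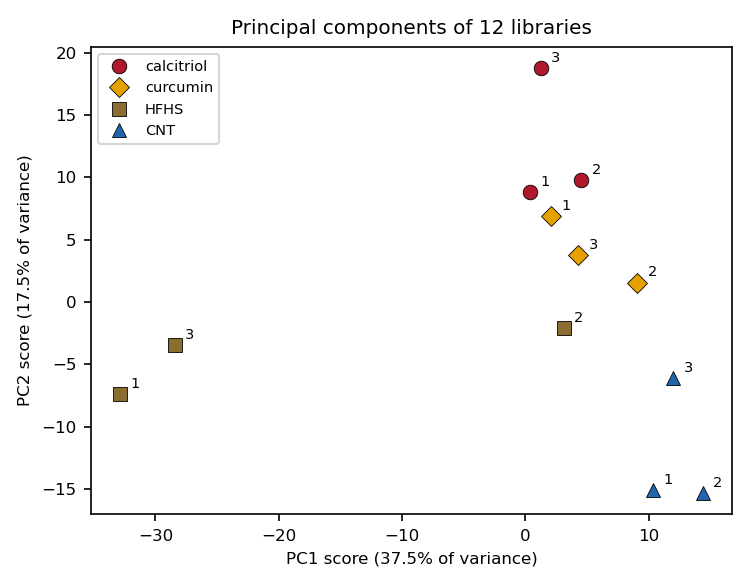
Principal components of the 12637 tested genes in the 12 libraries, with the share of variance on each axis label. The 3 calcitriol libraries lie close together near 0 on the first component and above the 3 CNT libraries on the second, while HFHS replicates 1 and 3 lie apart at -32.8 and -28.4 on the first.

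The calcitriol libraries resembled each other more than the HFHS or CNT libraries did. The SD between libraries of a group was 0.148 on the log2 scale with calcitriol, 0.233 in HFHS and 0.177 in CNT. HFHS replicates 1 and 3 stood apart on the first principal component, which held 37.5% of the variance, and HFHS replicate 2 lay among the other groups. Of the cell type marker lists, that of hepatocytes had the highest summed level in each of these groups, so the libraries look like the liver their labels name.

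Calcitriol livers differed from CNT livers in 511 of the 12637 genes, or 4.04% of those tested (limma, Benjamini-Hochberg adjusted p under 0.05). Of these, 224 were higher (1.77% of genes tested) and 287 lower (2.27%). At least 2-fold changes were seen in 10 of the higher and 29 of the lower genes. The 511 genes all had calcitriol and CNT libraries that did not overlap, a pattern found in 4082 genes, or 32.3% of those tested. In HFHS livers without treatment, 1505 genes (11.9%) differed from CNT, 828 higher (6.55%) and 677 lower (5.36%). Calcitriol and HFHS livers differed in 279 genes (2.21%), 123 higher (0.973%) and 156 lower (1.23%) with calcitriol.

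The count of 511 depended on single libraries. It was 170, 77 and 73 without calcitriol replicate 1, 2 or 3, and 226, 85 and 609 without CNT replicate 1, 2 or 3. It was 579, 1142 and 488 without HFHS replicate 1, 2 or 3, which enter through the shared estimate of the spread. Calcitriol and CNT libraries of the same number deviated together, though the titles do not say what the number stands for. With the replicate number as a block in a fit of these groups alone, 976 genes passed, 414 of them among the 511. In all, 52 genes passed in each of the 9 fits that left out 1 library, every other called gene lost its call without at least 1 library, and 49 passed under every one of the 19 alternative settings. Casc4, Vnn1, Gpc1, Cd36, Cyp4a14, Mt2 and Alas2 were among the 49 on the higher side. Sult5a1, Fasn, Elovl6, Acaca, Adgrf1, Cyp4f14, Gstm1, Gstm2, Lss, Hspa8, Dnajb1 and Dbp were among them on the lower side.

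The differences were sorted into 3 kinds. A difference from CNT that remained was called in calcitriol against CNT and in HFHS against CNT with the same sign, and 232 genes (1.84% of those tested) met this, 93 higher and 139 lower. They were 45.4% of the genes called with calcitriol and 15.4% of those called in HFHS. A difference that arose was called in calcitriol against CNT and in calcitriol against HFHS with the same sign, which 63 genes (0.499%) met, 24 higher and 39 lower. A difference that moved back was called in HFHS against CNT and with the opposite sign in calcitriol against HFHS, which 122 genes (0.965%) met, 86 higher and 36 lower in HFHS. These comparisons share their CNT, HFHS or calcitriol libraries, so the counts describe the groups and are no test. A further 219 genes called with calcitriol were in neither of the first 2 kinds, and 1154 genes called in HFHS were called in neither calcitriol comparison.

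The sorting leaned on the HFHS libraries and on the pooled spread. Without HFHS replicate 1, 2 or 3, the genes that remained numbered 96, 652 and 99, those that arose 15, 204 and 21, and those that moved back 7, 1632 and 22. Without calcitriol replicate 1, 2 or 3, the genes that remained numbered 67, 43 and 46, those that arose 36, 2 and 3, and those that moved back 48, 2 and 9. Without CNT replicate 1, 2 or 3, they numbered 81, 28 and 308 for remained, 38, 14 and 100 for arose, and 45, 15 and 175 for moved back. Fits that held only the groups compared left 8 genes that remained and none that arose or moved back. At an unadjusted p under 0.05, calcitriol and HFHS differed in 2693 genes.

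The differences that remained with a higher level included Casc4, a gene of a Golgi membrane protein family. Casc4 (ENSMUSG00000060227, GRCm38 chr2:121866970-121936220, plus strand) stood at 7.87, 7.96 and 7.77 in the 3 calcitriol livers, at 7.89, 7.56 and 8.02 in the 3 HFHS livers and at 6.66, 6.74 and 6.77 in the 3 CNT livers. Every calcitriol and HFHS liver lay above every CNT liver. The log2 change was 1.14 ± 0.10 (SE, adjusted p = 0.000497) in calcitriol against CNT, a 2.21-fold rise, and 1.10 ± 0.10 (adjusted p = 0.000518) in HFHS against CNT. Calcitriol and HFHS livers differed by 0.04 ± 0.10 (adjusted p = 0.861).

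Vnn1, a pantetheinase that PPARA is known to induce, stood at 11.61, 11.60 and 11.54 with calcitriol, at 11.24, 11.69 and 11.52 in HFHS and at 10.36, 10.62 and 10.52 in CNT. Its log2 change was 1.08 ± 0.11 (adjusted p = 0.000521) with calcitriol and 0.99 ± 0.11 in HFHS. Cyp4a14, a fatty acid omega-hydroxylase, stood at 14.41, 14.92 and 14.45 with calcitriol, at 14.55, 14.52 and 14.35 in HFHS and at 13.81, 13.67 and 13.51 in CNT, and rose by 0.93 ± 0.15 (adjusted p = 0.0109) with calcitriol against CNT. Both genes passed in every fit that left out 1 library. Pdk4, which restrains glucose oxidation, rose by 1.34 ± 0.26 (adjusted p = 0.0229), at 8.54, 8.98 and 8.98 with calcitriol and at 8.04, 7.48 and 6.97 in CNT. Its adjusted p ran from 0.0136 to 0.0938 when 1 library was left out, and passed 0.05 without CNT replicate 2, calcitriol replicate 2 or calcitriol replicate 3. Acot2, a mitochondrial thioesterase, rose by 0.88 ± 0.20 (adjusted p = 0.0399), and Ucp2, a mitochondrial carrier, by 0.70 ± 0.14 (adjusted p = 0.0198). The Ucp2 call was lost without CNT replicate 1 or 2 or any single calcitriol replicate, at an adjusted p up to 0.089. Among genes of fatty acid oxidation and ketone formation these 5 of 28 genes rose and none fell, with a median log2 change of 0.18, beside 7 of 28 with a median of 0.16 in HFHS. The shares that rose over all genes tested were 1.77% with calcitriol and 6.55% in HFHS. The core oxidation enzymes did not pass, such as Acadm at 0.22, Hadha at -0.03 and Cpt1a at 0.25. Over all genes tested the median was near 0, at -0.0039 with calcitriol and -0.011 in HFHS.

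Cd36, the fatty acid transporter of the plasma membrane, also remained above CNT. It stood at 11.99, 11.76 and 11.57 with calcitriol, at 12.02, 12.14 and 12.04 in HFHS and at 11.12, 10.81 and 10.67 in CNT. The calcitriol livers lay below the HFHS livers and above the CNT livers without overlap. The rise over CNT was 0.91 ± 0.12 (adjusted p = 0.0046) with calcitriol and 1.20 ± 0.12 (adjusted p = 0.000871) in HFHS, and the step between calcitriol and HFHS, -0.29 ± 0.12, did not pass (adjusted p = 0.198). Cd36 was the only called gene of 22 genes of lipid droplets and fat storage with calcitriol, whereas 6 rose in HFHS. Over all genes tested, 4.04% were called with calcitriol and 6.55% rose in HFHS. A list of this size would thus hold few calls with calcitriol in any case. Plin4, a droplet coat gene, had a change of 1.06 ± 0.28 (adjusted p = 0.0589) with calcitriol, which passed with the replicate block (adjusted p = 0.0414, against at most 0.285 over its alternatives).

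Gpc1, a glypican that carries heparan sulfate, remained above CNT and also fell relative to HFHS. It stood at 7.89, 7.97 and 7.54 with calcitriol, at 8.46, 8.49 and 8.15 in HFHS and at 6.51, 6.83 and 6.82 in CNT, so the groups formed 3 separate steps. The rise over CNT was 1.08 ± 0.13 (adjusted p = 0.00277) with calcitriol and 1.65 ± 0.13 (adjusted p = 0.000122) in HFHS. The difference between calcitriol and HFHS was -0.57 ± 0.13 (adjusted p = 0.0447), and this last call had an adjusted p from 0.0273 to 0.16 when 1 library was left out, and was lost without CNT replicate 2, HFHS replicate 1 or 3 or any single calcitriol replicate. In the rises over CNT, Gpc1 passed in all of them. Smpd3, a neutral sphingomyelinase, rose by 0.93 ± 0.17 (adjusted p = 0.0189) with calcitriol and 1.09 ± 0.17 in HFHS. Its call with calcitriol was lost without CNT replicate 1 or 2 or calcitriol replicate 1 or 3, at an adjusted p up to 0.0725.

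**Figure D2:**
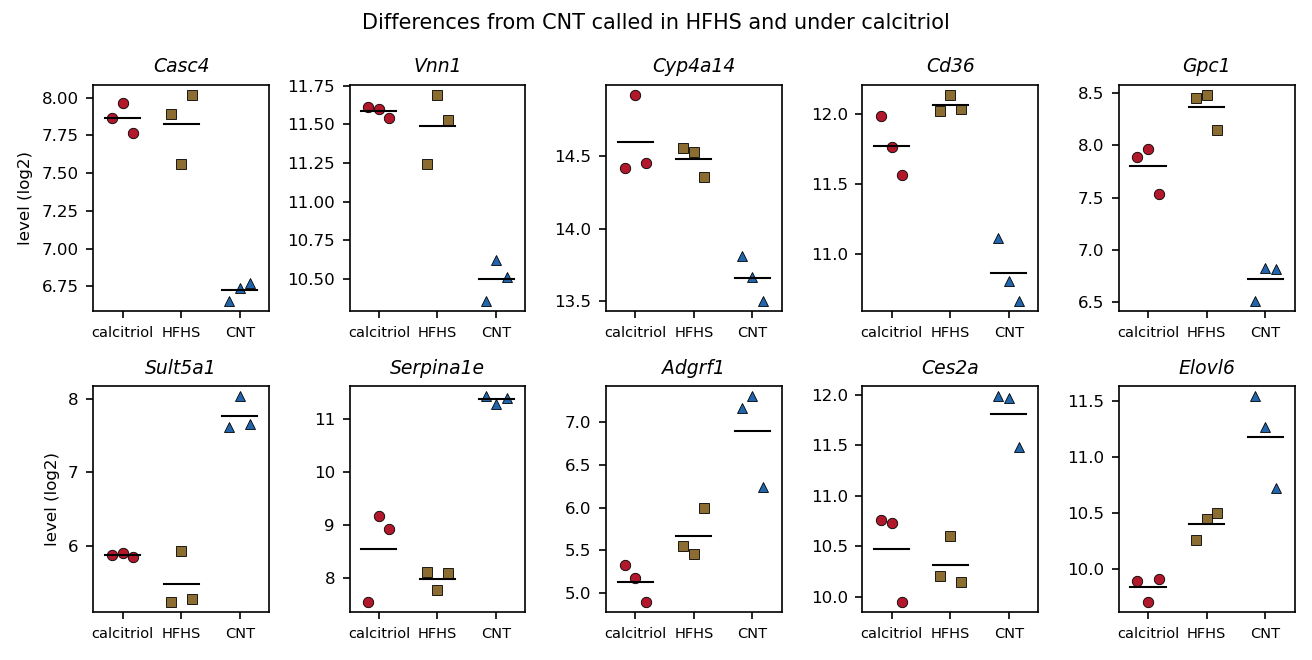
Deposited log2 level of 10 genes whose difference from CNT remained, by library (points) with the group mean (bar), for the calcitriol, HFHS and CNT livers. Calcitriol and HFHS libraries lie on the same side of the CNT libraries in each panel, above them for Casc4, Vnn1, Cyp4a14, Cd36 and Gpc1 and below them for Sult5a1, Serpina1e, Adgrf1, Ces2a and Elovl6.

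The largest fall that remained was in Serpina1e, 1 of the mouse alpha-1-antitrypsin genes. Serpina1e (ENSMUSG00000072849, chr12:103946931-103958975, minus strand) stood at 7.55, 9.16 and 8.92 with calcitriol, at 8.11, 7.77 and 8.09 in HFHS and at 11.43, 11.28 and 11.40 in CNT. The log2 change was -2.82 ± 0.39 (adjusted p = 0.00806) with calcitriol, 0.141 of the CNT level, and -3.38 ± 0.39 in HFHS. Its adjusted p in the calcitriol comparison was at most 0.0342 when 1 library was left out, and 0.0508 with the replicate block in a fit of the calcitriol and CNT groups alone. The alpha-1-antitrypsin genes are near-identical copies that can share reads, so the value of this copy is uncertain.

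Sult5a1, a cytosolic sulfotransferase, was also among the falls that remained. Its levels were 5.88, 5.90 and 5.84 with calcitriol, 5.24, 5.93 and 5.28 in HFHS and 7.62, 8.03 and 7.65 in CNT. The log2 change was -1.89 ± 0.18 (adjusted p = 0.000497) with calcitriol and -2.28 ± 0.18 (adjusted p = 0.000122) in HFHS. Casc4, Cd36, Gpc1 and Sult5a1 passed under every alternative in both comparisons with CNT. Sult5a1 was the only called gene of 12 in the sulfotransferase list with calcitriol, whose median change was -0.29, beside 4 that fell in HFHS. Of all genes tested, 4.04% were called with calcitriol and 5.36% fell in HFHS, so so short a list would hold few calls with calcitriol.

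Adgrf1, an adhesion receptor, stood at 5.33, 5.18 and 4.90 with calcitriol, at 5.56, 5.46 and 6.00 in HFHS and at 7.16, 7.30 and 6.24 in CNT. It fell by 1.76 ± 0.24 on the log2 scale with calcitriol (adjusted p = 0.00521) and by 1.23 ± 0.24 in HFHS (adjusted p = 0.0161). Ces2a, a carboxylesterase that hydrolyses lipids and drugs, stood at 10.76, 10.72 and 9.95 with calcitriol and at 11.98, 11.96 and 11.48 in CNT, a change of -1.33 ± 0.21 (adjusted p = 0.0114) that was lost only without CNT replicate 2 among the 9 fits (adjusted p up to 0.0543). Eci3, a peroxisomal enoyl-CoA isomerase, fell by 1.10 ± 0.21 (adjusted p = 0.0194). That call was lost without CNT replicate 2, calcitriol replicate 2 or calcitriol replicate 3, at an adjusted p up to 0.0832.

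Of 33 measured cytochrome P450 genes, which metabolise drugs and fatty acids, 6 fell and none rose with calcitriol against CNT, and 13 fell in HFHS against CNT, with medians of -0.21 and -0.47. Over all genes tested, 2.27% fell with calcitriol and 5.36% in HFHS. Of the 6, Cyp2c69, Cyp2c40, Cyp4f14, Cyp2c23 and Cyp2c68 had fallen in HFHS as well. Cyp4f14, a leukotriene and fatty acid hydroxylase, stood at 11.24, 11.47 and 11.18 with calcitriol, at 10.95, 11.26 and 10.81 in HFHS and at 12.34, 12.14 and 12.02 in CNT, with a change of -0.87 ± 0.12 (adjusted p = 0.00525) with calcitriol. Cyp2c69 fell by 1.69 ± 0.29 (adjusted p = 0.0159) and Cyp2c40 by 1.27 ± 0.24 (adjusted p = 0.0194), and the Cyp2c genes are close copies whose reads may be shared. The Cyp2c69 call was lost without CNT replicate 2 or calcitriol replicate 3, with an adjusted p up to 0.0715. The sixth, Cyp3a11, had a change of -0.71 ± 0.17 (adjusted p = 0.0391) with calcitriol and -0.13 ± 0.17 in HFHS.

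Angptl8, a feeding-induced inhibitor of lipoprotein lipase, fell by 1.01 ± 0.21 (adjusted p = 0.0305) with calcitriol and by 0.97 ± 0.21 in HFHS. Apoc3, an apolipoprotein that slows the clearance of triglyceride-rich particles, fell by 0.59 ± 0.14 and by 0.57 ± 0.14. With Apom these were the 3 genes called with calcitriol of 24 in the apolipoprotein and VLDL list, all 3 lower in both comparisons. In HFHS 6 of the 24 fell and 1 rose. Abcb11, the bile salt export pump, fell by 0.60 ± 0.10 (adjusted p = 0.0134) with calcitriol and by 0.42 ± 0.10 in HFHS, and Cyp27a1, a sterol 27-hydroxylase, by 0.47 ± 0.12 and by 0.71 ± 0.12. They were the only genes called with calcitriol of 21 in the bile acid list, beside 4 that fell in HFHS. Cyp7a1, which starts the classic bile acid route, overlapped between groups, at 12.62, 12.06 and 11.65 with calcitriol, at 11.93, 12.34 and 11.65 in HFHS and at 11.63, 12.05 and 12.48 in CNT. Ass1, argininosuccinate synthase of the urea cycle, fell by 0.92 ± 0.23 with calcitriol (adjusted p = 0.0476) and by 1.09 ± 0.23 in HFHS. With calcitriol it was the only gene called of 18 in the periportal list, and all 18 changes were below 0. In HFHS 6 of the 18 fell. Over all genes tested, 2.27% fell with calcitriol and 5.36% in HFHS.

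None of the 16 hepatocyte markers passed with calcitriol, 15 were below 0 and the median was -0.25, beside 5 that fell in HFHS with a median of -0.37. The shares over all genes tested were 4.04% called with calcitriol and 5.36% lower in HFHS. The summed level of the list ran from 20.51 to 20.99 (log2) in calcitriol livers and from 21.04 to 21.24 in CNT livers, so the ranges did not overlap. The part of this shift in the falls of hepatocyte genes was not tested. All 33 respiratory chain and ATP synthase genes had changes below 0 with calcitriol, with a median of -0.22 and none called. In HFHS all 33 were below 0 as well, with a median of -0.23 and 1 called. Between calcitriol and HFHS the median was -0.002.

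In the de novo lipogenesis list, which holds the enzymes that make fatty acids, 8 of 19 genes fell and none rose with calcitriol, with a median of -0.61, and 4 fell in HFHS, with a median of -0.55. The shares that fell over all genes tested were 2.27% and 5.36%. Fasn, fatty acid synthase (ENSMUSG00000025153, chr11:120805846-120824547, minus strand), stood at 11.95, 11.91 and 11.59 with calcitriol, at 12.48, 12.96 and 12.77 in HFHS and at 13.86, 13.54 and 13.31 in CNT. The 3 groups did not overlap. The change was -1.75 ± 0.17 (adjusted p = 0.000521) in calcitriol against CNT, -0.83 ± 0.17 (adjusted p = 0.0177) in HFHS against CNT and -0.92 ± 0.17 (adjusted p = 0.0297) in calcitriol against HFHS. The calcitriol against HFHS call was lost without CNT replicate 2, HFHS replicate 3 or calcitriol replicate 2 or 3, and its adjusted p over the 9 fits ran from 0.0102 to 0.126. Fasn was the only gene of the list called between calcitriol and HFHS, and so belonged both to the genes that remained and to those that arose.

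Elovl6, which lengthens the products of fatty acid synthase, stood at 9.89, 9.71 and 9.91 with calcitriol, at 10.26, 10.45 and 10.50 in HFHS and at 11.54, 11.27 and 10.73 in CNT. It fell by 1.34 ± 0.17 (adjusted p = 0.00317) with calcitriol and by 0.78 ± 0.17 (adjusted p = 0.02) in HFHS. Acaca, acetyl-CoA carboxylase, fell by 1.02 ± 0.14 (adjusted p = 0.00493) and by 0.58 ± 0.14 (adjusted p = 0.026). In the calcitriol comparison both genes passed under every alternative. Scd1, the stearoyl-CoA desaturase, had the largest change of the list, -2.67 ± 0.47 (adjusted p = 0.0186), but its calcitriol values were uneven, at 15.19, 13.40 and 13.17, with 15.69, 15.46 and 15.19 in HFHS and 17.06, 16.92 and 15.78 in CNT. The call was lost without CNT replicate 1 or 2 or calcitriol replicate 2 or 3, at an adjusted p up to 0.0729. Srebf1, which encodes the transcription factor of this pathway, had a change of -0.45 with calcitriol that did not pass and a fall of 0.59 in HFHS.

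The differences that arose with calcitriol were led by Mt2, a metallothionein. Its promoter and that of its neighbour Mt1 are shown because both genes were higher with calcitriol than in HFHS. The stretches are the 250 bases before the transcription start annotated in RefSeq (GRCm38.p6), 5′ to 3′ on the plus strand. Capitals mark the core of the metal response element, TGCACNC or TGCGCNC on either strand. Mt2 is chr8:94172368-94172617 and Mt1 is chr8:94178839-94179088.
Mt2: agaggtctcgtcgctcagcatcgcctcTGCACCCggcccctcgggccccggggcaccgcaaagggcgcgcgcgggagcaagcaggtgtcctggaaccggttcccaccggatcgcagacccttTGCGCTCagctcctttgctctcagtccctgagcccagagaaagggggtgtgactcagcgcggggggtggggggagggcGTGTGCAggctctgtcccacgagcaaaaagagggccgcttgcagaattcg
Mt1: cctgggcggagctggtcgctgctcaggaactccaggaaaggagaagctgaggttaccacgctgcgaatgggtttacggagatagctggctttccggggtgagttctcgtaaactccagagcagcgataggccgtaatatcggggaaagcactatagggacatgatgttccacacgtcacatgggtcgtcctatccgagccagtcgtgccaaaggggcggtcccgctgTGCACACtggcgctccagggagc
The Mt2 window held 3 matches and the Mt1 window 1. Both windows end at the annotated start, and matches beyond it were not counted. The counts thus do not compare the whole promoters of these genes. Of 32851 promoter windows of this length, 21.4% held at least 1 match, so a match describes the sequence alone.

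Mt2 (ENSMUSG00000031762) stood at 11.75, 12.27 and 13.31 in calcitriol livers, at 10.17, 9.57 and 9.64 in HFHS livers and at 9.82, 9.85 and 10.53 in CNT livers. Every calcitriol liver lay above every HFHS and CNT liver. The means were 12.44 ± 0.80 with calcitriol, 9.80 ± 0.33 in HFHS and 10.06 ± 0.40 in CNT (log2, SD, n = 3 each). The log2 change was 2.38 ± 0.37 (adjusted p = 0.0109) against CNT, a 5.21-fold rise, and 2.65 ± 0.37 (adjusted p = 0.0163) against HFHS. It was the largest rise among the genes called against CNT, and over the 9 fits that left out 1 library its adjusted p against CNT ran from 0.00771 to 0.0483. The call against HFHS was lost without calcitriol replicate 2, at an adjusted p up to 0.0625. HFHS livers did not differ detectably from CNT (-0.27 ± 0.37, adjusted p = 0.642). Mt1 stood at 12.16, 12.70 and 13.53 with calcitriol, at 10.94, 10.66 and 10.65 in HFHS and at 11.18, 11.31 and 12.33 in CNT. It rose by 2.05 ± 0.35 (adjusted p = 0.0249) against HFHS, while its difference from CNT, 1.19 ± 0.35, did not pass (adjusted p = 0.0802). The Mt1 call against HFHS was lost without HFHS replicate 1 or 3 or calcitriol replicate 2 or 3, at an adjusted p up to 0.0996. CNT replicate 3 overlapped the calcitriol livers.

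Acute phase genes, made by the liver in inflammation, ran high in calcitriol replicate 3 and in CNT replicate 3, the libraries with the highest metallothionein levels of their groups. Saa1 stood at 12.65, 13.13 and 16.69 with calcitriol and at 9.86, 10.10 and 13.57 in CNT, and Lcn2 at 11.25, 11.25 and 13.92 with calcitriol and at 8.64, 8.97 and 12.16 in CNT. Of the 26 genes on the acute phase list, 24 had changes above 0 in calcitriol against CNT and the median was 0.53, but Saa4 alone was called. In calcitriol against HFHS all 26 were above 0, with a median of 0.80, and 3 were called higher. In HFHS against CNT 21 of the 26 were below 0, with a median of -0.29 and none called. The summed level of the list ran from 19.52 to 20.64 (log2) with calcitriol and from 19.24 to 19.94 in CNT. Without replicate 3 of both groups, the Mt2 change was 2.18 (adjusted p = 0.011). In the libraries kept, Saa1 and Lcn2 were also higher with calcitriol than in CNT. That fit thus cannot tell the Mt2 rise apart from the acute phase difference. Saa4, a serum amyloid A protein carried on lipoproteins, stood at 13.52, 13.71 and 14.23 with calcitriol, at 12.05, 13.04 and 12.38 in HFHS and at 12.46, 12.48 and 13.09 in CNT. It rose by 1.14 ± 0.26 (adjusted p = 0.036) against CNT, a call that was lost without CNT replicate 1 or 2 or any single calcitriol replicate, at an adjusted p up to 0.137.

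In the list of 14 metallothionein and zinc genes, Mt2 and Slc39a5 rose against CNT and none fell, and 4 rose and none fell against HFHS. Slc39a5, a zinc importer, was at 6.07, 6.01 and 6.15 with calcitriol, at 6.19, 6.45 and 5.94 in HFHS and at 5.65, 5.30 and 5.47 in CNT, and so was among the genes that remained. Slc30a1, a zinc exporter, was lower in HFHS than in CNT by 0.37 ± 0.06 (adjusted p = 0.0109). It had moved back with calcitriol, 0.49 ± 0.06 above HFHS (adjusted p = 0.00864).

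Enzymes of cholesterol synthesis formed the largest group of differences that arose. Of the 25 genes in the list, 17 fell and none rose in calcitriol against CNT, with a median of -0.64, beside 2.27% of all genes tested. In HFHS against CNT 1 fell, Ebp, and the median was -0.04. Between calcitriol and HFHS 12 fell, with a median of -0.66, and 10 of them were also called against CNT and so arose, namely Mvd, Pmvk, Fdps, Fdft1, Lss, Cyp51, Nsdhl, Sc5d, Dhcr7 and Acat2. They span the pathway from the joining of acetyl-CoA units (Acat2) through the mevalonate steps (Pmvk, Mvd), farnesyl pyrophosphate (Fdps), squalene (Fdft1) and its closure to lanosterol (Lss) to the last steps of the sterol ring (Cyp51, Nsdhl, Sc5d, Dhcr7).

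Lss, lanosterol synthase (ENSMUSG00000033105, chr10:76531588-76557138, plus strand), passed against CNT under every alternative. It stood at 9.82, 9.90 and 9.61 with calcitriol, at 10.39, 10.73 and 10.65 in HFHS and at 10.46, 10.57 and 10.56 in CNT, so the calcitriol livers lay below all HFHS and CNT livers. The change was -0.75 ± 0.12 (adjusted p = 0.00806) against CNT and -0.81 ± 0.12 (adjusted p = 0.0127) against HFHS. The call against HFHS was lost without calcitriol replicate 2 or 3, at an adjusted p up to 0.0594. Fdps, farnesyl pyrophosphate synthase, stood at 7.35, 7.36 and 7.30 with calcitriol, at 8.01, 8.50 and 8.28 in HFHS and at 8.12, 8.20 and 8.40 in CNT, a change of -0.90 ± 0.15 (adjusted p = 0.0129) against CNT. Without calcitriol replicate 2 or 3 that call was lost, at an adjusted p up to 0.0554. Sc5d, a sterol desaturase, fell by 0.72 ± 0.12 (adjusted p = 0.0129), which was lost without CNT replicate 2 or calcitriol replicate 3 at an adjusted p up to 0.065. Mvd, mevalonate diphosphate decarboxylase, had the largest step between calcitriol and HFHS of the 10, -1.24 ± 0.23 (adjusted p = 0.0305), and -0.95 ± 0.23 against CNT. That last call was lost without CNT replicate 2 or 3, HFHS replicate 3 or any single calcitriol replicate, at an adjusted p up to 0.155.

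Insig1, which retains the SREBP complex, stood at 11.01, 11.30 and 10.91 with calcitriol, at 11.44, 11.84 and 11.32 in HFHS and at 11.84, 11.96 and 11.90 in CNT. It fell by 0.83 ± 0.14 (adjusted p = 0.0129) against CNT, with no overlap of those groups. The Insig1 call was lost without CNT replicate 2 or calcitriol replicate 3, at an adjusted p up to 0.0622. Hmgcs1, HMG-CoA synthase, was 1.23 ± 0.20 below HFHS (adjusted p = 0.021), with -0.64 ± 0.20 against CNT (adjusted p = 0.0914), a difference that passed with the replicate block (adjusted p = 0.0476, against at most 0.387 over its alternatives). Srebf2, the transcription factor of the pathway, had a change of 0.08 that did not pass.

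**Figure D3:**
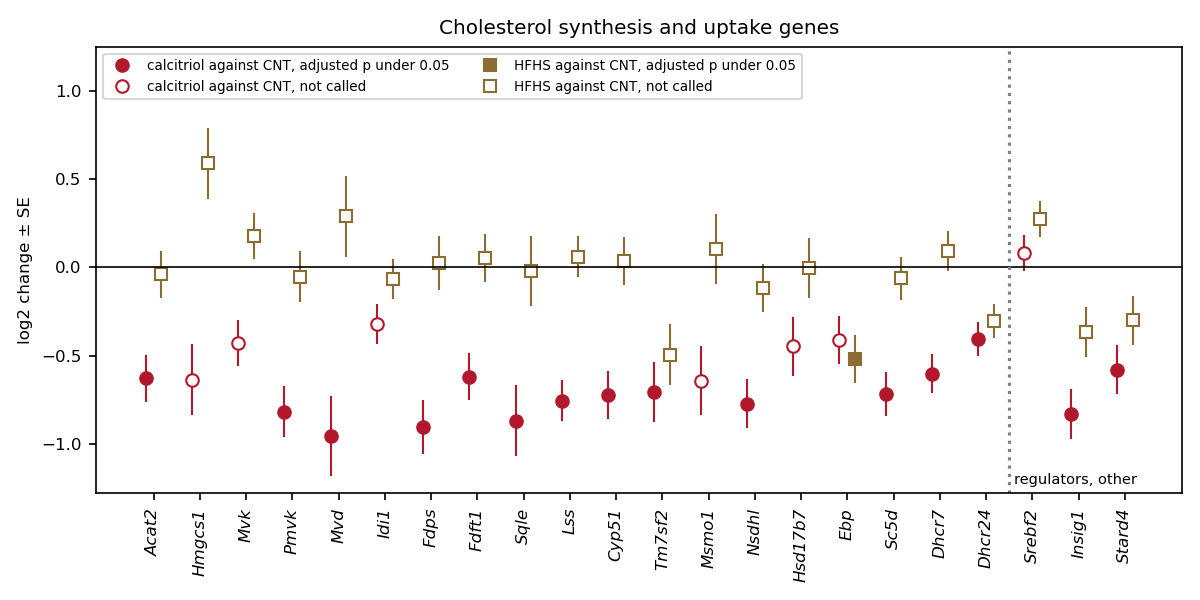
Log2 change with its SE of 22 of the 25 genes of the cholesterol list in calcitriol against CNT and in HFHS against CNT, with filled points for genes at an adjusted p under 0.05. In calcitriol against CNT 15 of the plotted genes are filled and all 15 lie below 0, in HFHS against CNT 1 is filled.

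Promoters of 2 sterol enzymes that arose are given because a CCAAT box, the binding site of NF-Y, was frequent in the list. Each stretch is the 250 bases before the start from RefSeq (GRCm38.p6), 5′ to 3′ on the gene's own strand, with CCAAT or its reverse complement ATTGG in capitals. Lss is chr10:76531355-76531604 on the plus strand and Cyp51 is chr5:4104698-4104947 on the minus strand.
Lss: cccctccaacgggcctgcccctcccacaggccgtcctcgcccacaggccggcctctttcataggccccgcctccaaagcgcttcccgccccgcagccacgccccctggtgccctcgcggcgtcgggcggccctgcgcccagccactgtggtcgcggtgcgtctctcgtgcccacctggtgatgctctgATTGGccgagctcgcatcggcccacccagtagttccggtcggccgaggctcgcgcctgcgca
Cyp51: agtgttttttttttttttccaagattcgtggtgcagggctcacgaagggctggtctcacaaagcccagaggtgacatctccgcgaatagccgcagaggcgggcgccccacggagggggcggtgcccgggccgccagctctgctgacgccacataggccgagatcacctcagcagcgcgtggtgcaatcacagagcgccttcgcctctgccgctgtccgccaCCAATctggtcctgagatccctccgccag
A CCAAT box stood in the window of 16 of the 17 list genes that had one, and of 37.5% of all 27025 genes with a window. The sterol core TCACNCCA, searched on both strands, stood in 3 of the 17 and in 4.2% of all genes, and in neither window shown. Of the 10 list genes called lower against CNT that had a window, 9 held a CCAAT box and 0 the sterol core. These are counts of letters in a short window and say nothing about which factor acts there.

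Of 20 measured glutathione S-transferases, which join glutathione to drugs and lipid peroxides, 9 fell with calcitriol against CNT (Gstm1, Gstm2, Gstm3, Gstm4, Gstm6, Gstm7, Gsta2, Gsta4 and Gstp1) and none rose. The share that fell over all genes tested was 2.27%. Gstm1 (ENSMUSG00000058135, chr3:108012255-108017973, minus strand) stood at 13.00, 12.90 and 12.51 with calcitriol, at 13.76, 13.39 and 13.58 in HFHS and at 14.04, 13.93 and 13.87 in CNT. The calcitriol livers were below all HFHS and CNT livers. The change was -1.14 ± 0.14 (adjusted p = 0.00305) against CNT, 0.453 of the CNT level, and -0.77 ± 0.14 (adjusted p = 0.027) against HFHS, while HFHS differed from CNT by -0.37 ± 0.14 (adjusted p = 0.0987). Gstm4 stood at 8.73, 8.57 and 8.55 with calcitriol, at 9.50, 9.40 and 9.21 in HFHS and at 9.37, 9.65 and 9.33 in CNT, and fell by 0.83 ± 0.10 (adjusted p = 0.00305) against CNT and by 0.75 ± 0.10 (adjusted p = 0.0114) against HFHS. Against HFHS the Gstm1 call was lost without HFHS replicate 1 or 3 or calcitriol replicate 2 or 3, and the Gstm4 call without calcitriol replicate 2 or 3, with adjusted p up to 0.104 and 0.0625. Gstm2 fell by 1.06 ± 0.14 and Gstm6 by 1.01 ± 0.14 against CNT.

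Gstm1, Gstm2, Gstm4, Gstm6 and Gstm7 passed against CNT in every fit that left out 1 library. Gstm3 had the largest change of the family, -1.59 ± 0.36 (adjusted p = 0.0407), but held only without HFHS replicate 1 or 2 among the 9 fits, with an adjusted p up to 0.14. Gsta2 fell by 1.48 ± 0.25 (adjusted p = 0.013), a call lost without CNT replicate 2 or calcitriol replicate 2 or 3, at an adjusted p up to 0.0628. The Gstm genes form a cluster of close copies on chromosome 3, so their reads may be shared and their falls may not be separate measurements.

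Several of these genes are established targets of NRF2, the transcription factor of the antioxidant response. In that list 7 of 25 fell and none rose against CNT, with a median of -0.26, beside 2.27% of all genes tested that fell. In HFHS 1 rose and 1 fell, with a median of -0.02. The 7 were 6 glutathione S-transferases and Me1, malic enzyme, which is also a lipogenic gene. The glutamate-cysteine ligase genes and Txnrd1, other standard targets, were near 0, with Gclc at 0.09, Gclm at -0.02 and Txnrd1 at -0.05. Nqo1, a quinone reductase, stood at 7.38, 6.94 and 7.20 with calcitriol, at 7.81, 7.72 and 7.90 in HFHS and at 7.60, 7.74 and 7.25 in CNT, and fell by 0.63 ± 0.13 (adjusted p = 0.0372) against HFHS without passing against CNT (-0.36 ± 0.13, adjusted p = 0.132). Pir, an iron-binding nuclear protein outside the list, passed against CNT under every alternative. Its levels were 7.15, 7.23 and 7.26 with calcitriol, 7.86, 7.91 and 7.94 in HFHS and 7.98, 8.09 and 7.87 in CNT, a change of -0.76 ± 0.07 (adjusted p = 0.000497) against CNT and -0.69 ± 0.07 (adjusted p = 0.00225) against HFHS.

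**Figure D4:**
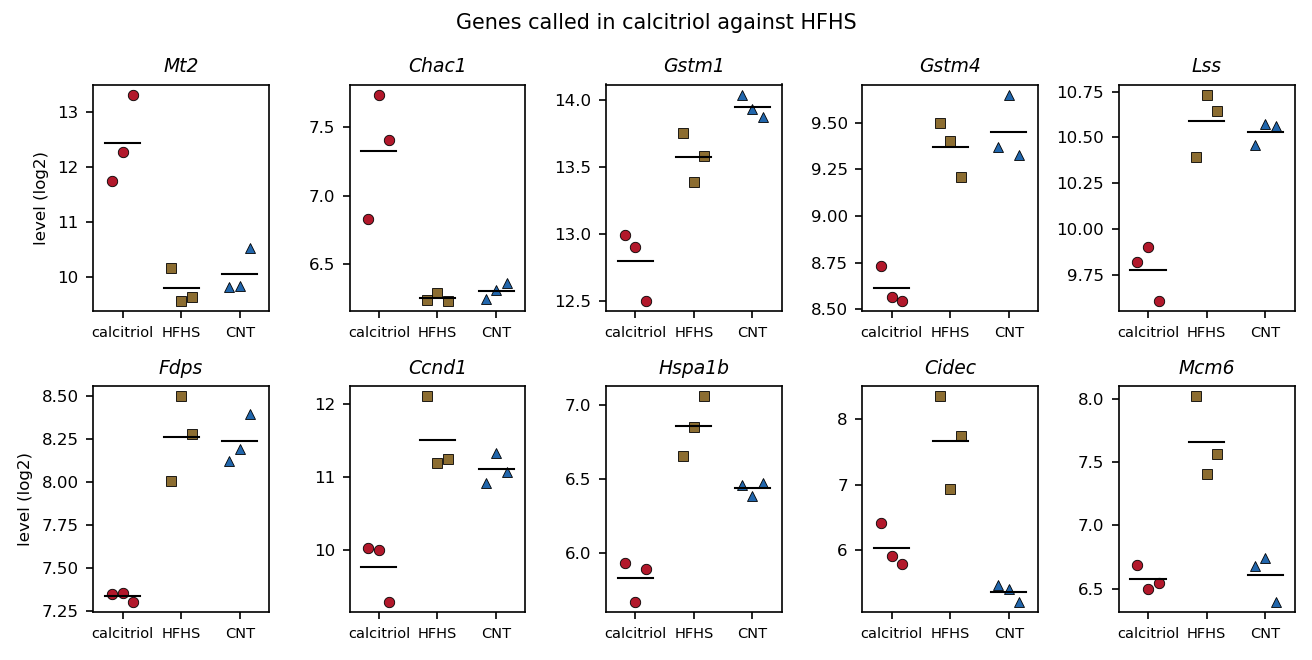
Deposited log2 level of 10 genes that differed between calcitriol and HFHS livers, by library (points) with the group mean (bar), for the calcitriol, HFHS and CNT livers. Calcitriol libraries lie above both other groups for Mt2 and Chac1 and below both for Gstm1, Gstm4, Lss, Fdps, Ccnd1 and Hspa1b, while for Cidec and Mcm6 the HFHS libraries lie above the others.

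In the list of 15 cytosolic chaperones of the heat shock response, 4 fell and none rose against CNT, with a median of -0.25. Of all genes tested, 2.27% fell. Hspa8, the constitutive member of the HSP70 family, stood at 11.45, 11.40 and 11.48 with calcitriol, at 11.81, 11.96 and 11.73 in HFHS and at 12.12, 12.00 and 12.03 in CNT, a fall of 0.61 ± 0.09 (adjusted p = 0.00525) against CNT. Dnajb1, its co-chaperone, stood at 8.38, 8.30 and 8.38, at 8.83, 9.09 and 8.90 and at 8.98, 8.85 and 9.04 in the calcitriol, HFHS and CNT livers in that order, a fall of 0.60 ± 0.09 (adjusted p = 0.00806). Both passed under every alternative against CNT. Hspa1b, the inducible HSP70, was the 1 gene called against CNT with opposite signs in the 2 groups. It stood at 5.93, 5.67 and 5.89 with calcitriol, at 6.66, 6.85 and 7.06 in HFHS and at 6.46, 6.38 and 6.47 in CNT. The change was -0.61 ± 0.11 (adjusted p = 0.016) with calcitriol and 0.42 ± 0.11 (adjusted p = 0.0334) in HFHS against CNT, and -1.03 ± 0.11 (adjusted p = 0.00225) between calcitriol and HFHS, which passed in all 9 fits without 1 library. The call against CNT was lost without CNT replicate 2 or calcitriol replicate 2 or 3, at an adjusted p up to 0.0681, and Hspa1b has a near-identical neighbour copy. Of 22 ER chaperone genes, only Ern1, a sensor of unfolded protein, was called, lower by 0.47 with calcitriol and by 0.54 in HFHS. The calcitriol call was lost with the replicate block (adjusted p = 0.0509), and its adjusted p ran from 0.00949 to 0.142 over the alternatives.

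Ccnd1, cyclin D1, which lets cells enter the cycle, stood at 10.035, 9.998 and 9.290 with calcitriol, at 12.11, 11.20 and 11.24 in HFHS and at 10.92, 11.33 and 11.08 in CNT. The calcitriol livers were below all HFHS and CNT livers. It fell by 1.34 ± 0.24 (adjusted p = 0.0192) against CNT and by 1.74 ± 0.24 (adjusted p = 0.0163) against HFHS. The call against CNT was lost without CNT replicate 2 or calcitriol replicate 2 or 3, at an adjusted p up to 0.0778, and that against HFHS without calcitriol replicate 2, at up to 0.0537. Chac1, which degrades glutathione and is a known target of ATF4, stood at 6.83, 7.74 and 7.40 with calcitriol, at 6.24, 6.29 and 6.23 in HFHS and at 6.24, 6.31 and 6.36 in CNT, and rose by 1.02 ± 0.19 (adjusted p = 0.0194) against CNT. That call was lost without CNT replicate 1 or 2 or calcitriol replicate 2 or 3, at an adjusted p up to 0.0776. Chac1 was the only called gene of 19 in the ATF4 list with calcitriol, while Trib3 and Atf5, other ATF4 targets, had changes of -0.59 and -0.55 that did not pass. B3galt1, a galactosyltransferase, stood at 9.28, 9.82 and 10.36 with calcitriol, at 8.35, 8.88 and 8.24 in HFHS and at 8.47, 8.75 and 8.31 in CNT, a rise of 1.31 ± 0.25 (adjusted p = 0.0203) that was lost without CNT replicate 1 or 2 or calcitriol replicate 2 or 3, at an adjusted p up to 0.072.

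Some of the higher genes were called against CNT alone and in neither other comparison. Igfbp1, an insulin-suppressed binding protein of insulin-like growth factors, stood at 10.08, 11.23 and 11.19 with calcitriol, at 11.27, 10.12 and 10.08 in HFHS and at 9.41, 9.60 and 8.98 in CNT. It rose by 1.50 ± 0.35 (adjusted p = 0.0443), beside 1.16 ± 0.35 in HFHS (adjusted p = 0.0572). Pcp4l1, a small calmodulin-binding protein relative, rose by 1.61 ± 0.36 (adjusted p = 0.039), with levels of 9.88, 9.83 and 9.59 against 8.27, 8.01 and 8.17 in CNT, and its HFHS levels spread over 8.03, 9.48 and 9.84. Both calls were lost without any single CNT replicate and without calcitriol replicate 2 or 3, that of Pcp4l1 also without calcitriol replicate 1, and both were lost with the replicate block, at an adjusted p of 0.0659 for Igfbp1 and 0.0509 for Pcp4l1. Over all alternatives the adjusted p reached 0.233 for Igfbp1 and 0.147 for Pcp4l1.

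Differences of the HFHS livers that had moved back were led by Cidec, a protein that enlarges lipid droplets. Cidec (ENSMUSG00000030278, chr6:113424634-113435760, minus strand) stood at 6.41, 5.91 and 5.80 with calcitriol, at 8.35, 6.93 and 7.74 in HFHS and at 5.48, 5.42 and 5.21 in CNT. The groups did not overlap. Calcitriol livers were 1.63 ± 0.29 below HFHS on the log2 scale (adjusted p = 0.027), and their difference from CNT, 0.67 ± 0.29, did not pass (adjusted p = 0.191), which does not show that the levels were equal. The call against HFHS was lost without HFHS replicate 1 or 3 or calcitriol replicate 2 or 3, and its adjusted p over the 9 fits ran from 0.000173 to 0.124. Pparg, the fat storage receptor, was also among the genes that moved back, at 7.81, 7.68 and 7.51 with calcitriol, at 8.27, 8.01 and 8.28 in HFHS and at 7.39, 7.53 and 7.32 in CNT. Whether the Pparg call held without single libraries is not reported here.

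DNA replication genes were the largest listed group that had moved back. Of 28 genes in the replication and cell cycle list, 14 rose in HFHS against CNT with a median of 0.49, and 10 of these fell in calcitriol against HFHS. Over all genes tested, 6.55% rose in HFHS and 1.23% fell in calcitriol against HFHS. The median deviation of the list genes from their mean over the 12 libraries was 0.66, 0.09 and 0.30 in HFHS replicates 1, 2 and 3. The HFHS rise was thus uneven and smallest in replicate 2. Mcm6, a subunit of the replicative helicase, stood at 6.69, 6.49 and 6.55 with calcitriol, at 8.02, 7.40 and 7.56 in HFHS and at 6.68, 6.74 and 6.39 in CNT. The calcitriol and CNT livers overlapped, and HFHS lay above both. The change was -1.09 ± 0.14 (adjusted p = 0.00868) in calcitriol against HFHS and -0.03 ± 0.14 in calcitriol against CNT. The call against HFHS was lost without calcitriol replicate 2, at an adjusted p up to 0.0544. Mcm2, Mcm3, Mcm4 and Mcm5, other subunits, moved back as well, with calcitriol against CNT changes from -0.01 to 0.12. How their calls fared without single libraries is not reported here. The median of the list in calcitriol against CNT was -0.01, and Ccnd1 was its only called gene.

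Anxa2, a membrane-binding annexin, stood at 7.99, 7.81 and 7.91 with calcitriol, at 9.89, 8.43 and 9.27 in HFHS and at 7.95, 7.71 and 7.79 in CNT. Lgals1, galectin 1, stood at 8.32, 7.54 and 7.81, at 9.21, 8.78 and 8.98 and at 8.05, 7.94 and 7.97 in the calcitriol, HFHS and CNT livers in that order. In both genes HFHS lay above the other groups, which overlapped. Both were called between calcitriol and HFHS, at -1.29 ± 0.27 (adjusted p = 0.0384) and -1.10 ± 0.18 (adjusted p = 0.021). The Lgals1 call was lost without HFHS replicate 1 or 3 or calcitriol replicate 2 or 3. The Anxa2 call was lost without these, CNT replicate 1 or 2 or calcitriol replicate 1. The adjusted p reached 0.145 for Anxa2 and 0.0996 for Lgals1. In all, 118 of the 1272 genes called in HFHS but not in calcitriol livers had moved back by this test.

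In the lists of matrix, MHC class II and NF-kB genes, no gene was called against CNT with calcitriol, while many were in HFHS. Over all genes tested, 4.04% were called with calcitriol and 6.55% rose in HFHS. Lists of this size would thus hold few calls with calcitriol in any case. Of 35 fibrosis and matrix genes, none were called with calcitriol, with a median of 0.14, and 16 rose in HFHS, with a median of 0.997. Col1a1, a chain of fibrillar collagen, stood at 7.66, 6.86 and 6.68 with calcitriol, at 10.13, 7.33 and 9.78 in HFHS and at 7.14, 6.88 and 6.87 in CNT. Its high values came from HFHS replicates 1 and 3, and neither the rise in HFHS (adjusted p = 0.054) nor the difference between calcitriol and HFHS (-2.01 ± 0.62, adjusted p = 0.111) passed. None of the 35 was called between calcitriol and HFHS. Gpnmb, which macrophages full of lipid express, stood at 4.33, 4.18 and 4.40 with calcitriol, at 8.62, 4.89 and 7.15 in HFHS and at 4.31, 4.22 and 4.21 in CNT, and was likewise not called between calcitriol and HFHS (adjusted p = 0.087). It is therefore not shown for these genes that calcitriol livers differ from HFHS livers, and without HFHS replicate 2 the count of all genes called between them was 2194 in place of 279.

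Of 10 MHC class II genes, none were called with calcitriol against CNT (4.04% of all genes tested), with a median of 0.14. In HFHS 8 rose (6.55% of all genes tested), with a median of 0.75. Of 22 NF-kB genes, none were called with calcitriol and 9 rose in HFHS. Among these, the chemokine genes Cxcl10 and Ccl5 had moved back, at -0.86 and -0.99 against HFHS. Whether these 2 calls held without single libraries is not reported here. The count of all genes that moved back fell from 122 to 7 without HFHS replicate 1 and to 2 without calcitriol replicate 2. Il1b, an inflammatory cytokine gene, stood at 5.67, 5.56 and 5.96 with calcitriol, at 5.94, 5.69 and 6.27 in HFHS and at 5.24, 4.96 and 5.45 in CNT. All 3 calcitriol livers lay above all 3 CNT livers, but the difference of 0.51 ± 0.18 did not pass (adjusted p = 0.12). Ccl2, a monocyte chemokine, differed from CNT by 0.12 ± 0.16 and Cd68, a macrophage lysosomal protein, by 0.46 ± 0.13 (adjusted p = 0.0726). The Cd68 difference passed with the replicate block, at an adjusted p of 0.015, with up to 0.214 over its alternatives.

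**Figure D5:**
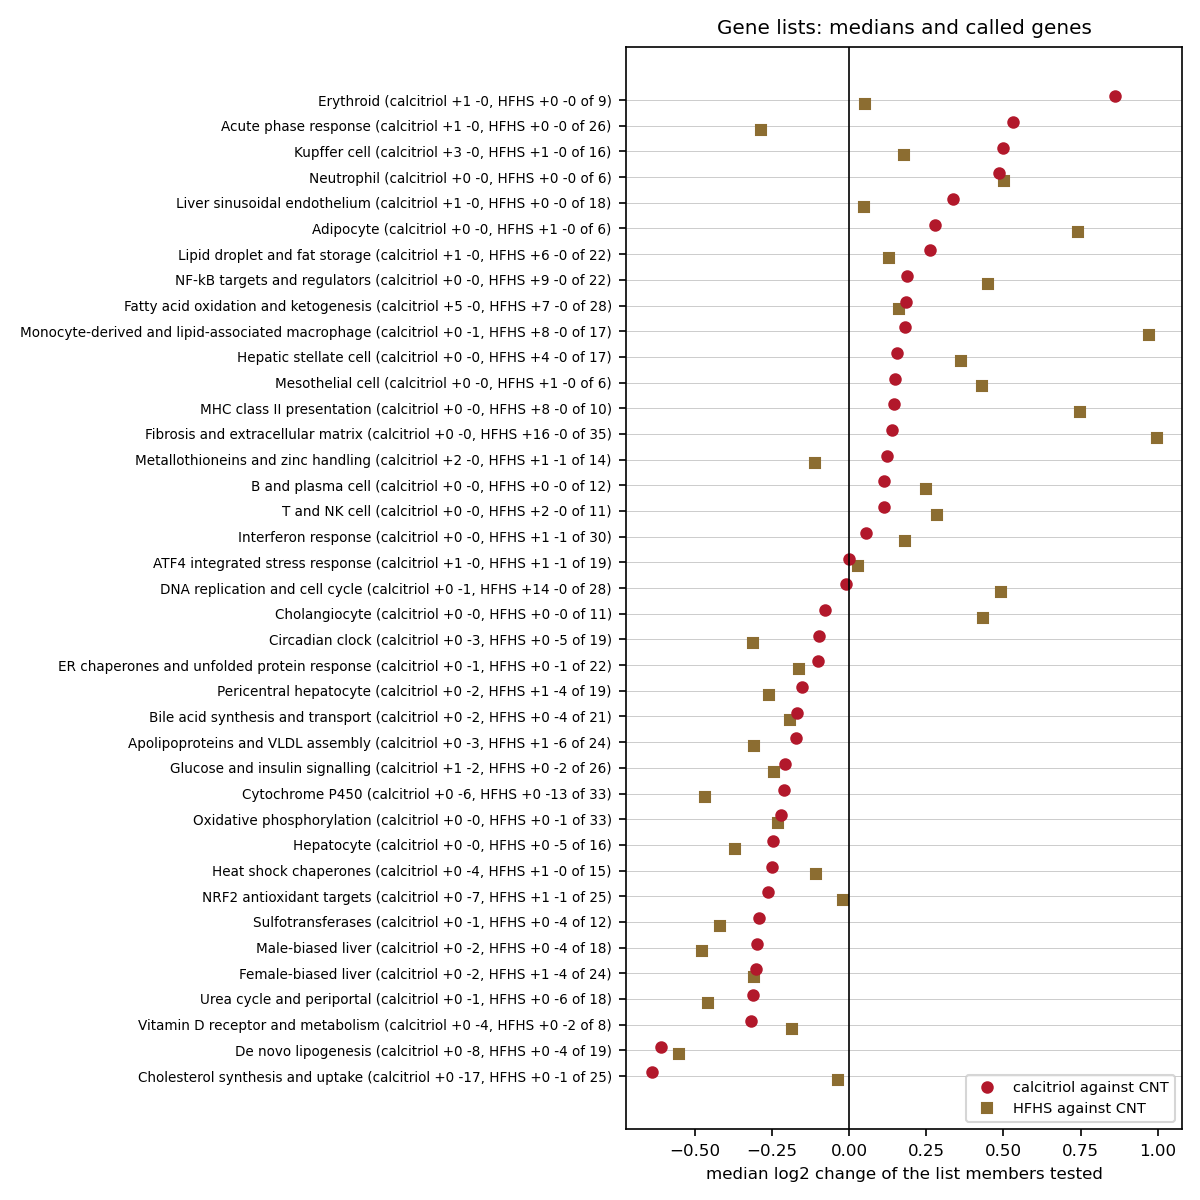
Median log2 change of each gene list with at least 5 tested genes, in calcitriol against CNT and in HFHS against CNT, with the number of called genes beside it. Cholesterol synthesis has 17 called genes with calcitriol and 1 in HFHS, and fibrosis and matrix has 0 with calcitriol and 16 in HFHS. Over all genes tested, 4.04% were called with calcitriol and 11.9% in HFHS.

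Genes of vitamin D handling were few above the filter. Cyp24a1, the standard target of the hormone, was listed at 0 in all 12 libraries. Vdr, the receptor, was below the filter, at -0.66, -0.72 and -0.72 with calcitriol, at -0.67, -0.72 and -0.70 in HFHS and at -0.72, -0.69 and -0.72 in CNT. The activating enzyme Cyp27b1 was also below it, at about -0.79 with calcitriol. Of the 16 genes in the list 8 were tested, 4 fell and none rose, with a median of -0.32. Cyp2r1, the 25-hydroxylase that makes the circulating form of vitamin D, stood at 7.43, 7.47 and 7.34 with calcitriol, at 7.44, 7.60 and 7.36 in HFHS and at 7.92, 7.92 and 8.08 in CNT, a fall of 0.56 ± 0.09 (adjusted p = 0.0099) that was there in HFHS too (-0.50 ± 0.09, adjusted p = 0.0121). Without calcitriol replicate 3 its adjusted p was 0.0515, the only loss among the 9 fits, which ran down to 0.00401. The other 3 were Cyp27a1, Cyp3a11 and Dhcr7, which uses up the precursor of vitamin D and fell by 0.60 ± 0.11 (adjusted p = 0.0186) against CNT.

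Of 16 genes of Kupffer cells, the resident macrophages of the liver, 3 rose and none fell with calcitriol against CNT, 14 had changes above 0 and the median was 0.50, beside 1 that rose in HFHS with a median of 0.18. Of all genes tested, 1.77% rose with calcitriol and 6.55% in HFHS. Csf1r, the receptor for the macrophage growth factor, rose by 0.68 ± 0.14 (adjusted p = 0.0233). Vsig4, a complement receptor, stood at 10.03, 10.01 and 10.38 with calcitriol, at 9.74, 9.92 and 9.44 in HFHS and at 9.53, 9.44 and 9.59 in CNT, a rise of 0.62 ± 0.12 (adjusted p = 0.0203). Clec4f, a lectin specific to Kupffer cells in mice, rose by 0.58 ± 0.13 (adjusted p = 0.0342), at 11.32, 11.40 and 11.50 with calcitriol against 10.92, 10.67 and 10.87 in CNT. Each of these calls was lost without CNT replicate 2 or calcitriol replicate 2 or 3, with adjusted p up to 0.102, 0.088 and 0.128, and none of the 3 was called between calcitriol and HFHS. The Csf1r and Clec4f calls were also lost without calcitriol replicate 1, and the Vsig4 and Clec4f calls without CNT replicate 1. Cd163, a haemoglobin scavenger receptor, was called between calcitriol and HFHS (1.92 ± 0.42, adjusted p = 0.047), at 8.83, 9.39 and 9.24 with calcitriol, at 6.70, 8.50 and 6.49 in HFHS and at 8.02, 8.25 and 8.10 in CNT. The summed Kupffer level ran from 14.28 to 14.57 with calcitriol and from 13.76 to 14.07 in CNT.

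All 18 genes of liver sinusoidal endothelium had changes above 0 with calcitriol, with a median of 0.34, and 1 of them, Bmp2, a signal that controls hepatic iron, was called, at 0.52 ± 0.12 (adjusted p = 0.036). That call was lost without CNT replicate 2 or 3 or calcitriol replicate 2 or 3, at an adjusted p up to 0.139. The summed level of the list ran from 13.64 to 13.73 with calcitriol and from 13.02 to 13.67 in CNT. Of the 17 genes of monocyte-derived and lipid-associated macrophages, 1 was called with calcitriol, Fabp5, a fatty acid binding protein, which fell by 1.27 ± 0.28 (adjusted p = 0.0358), while 8 rose in HFHS. Over all genes tested, 4.04% were called with calcitriol and 6.55% rose in HFHS. The Fabp5 call was lost without any single CNT or calcitriol replicate, at an adjusted p up to 0.12.

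Of 9 erythroid genes tested, Alas2 alone was called with calcitriol against CNT. Alas2, which starts haem synthesis in red cells, stood at 9.85, 9.63 and 9.64 with calcitriol, at 8.96, 9.30 and 9.15 in HFHS and at 8.67, 8.82 and 9.20 in CNT, and rose by 0.81 ± 0.13 (adjusted p = 0.00814) against CNT and by 0.57 ± 0.13 (adjusted p = 0.0415) against HFHS. It passed against CNT under every alternative, and the call against HFHS was lost without CNT replicate 2, HFHS replicate 1 or 3 or any single calcitriol replicate, at an adjusted p up to 0.149. The globin genes did not pass. Hba-a1 stood at 10.98, 10.63 and 10.66 with calcitriol, at 9.14, 9.80 and 10.13 in HFHS and at 9.14, 9.67 and 10.27 in CNT, a difference of 1.06 ± 0.28 from CNT (adjusted p = 0.0574). With the replicate block Hba-a1 passed at an adjusted p of 0.0463, with up to 0.154 over its alternatives. Of the 9 genes 8 had changes above 0 with calcitriol, with a median of 0.86, and the summed level ran from 13.50 to 13.80 with calcitriol and from 12.11 to 13.18 in CNT. Whether blood left in the tissue has a part in these values was not tested.

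Of 19 genes of the circadian clock, 3 fell with calcitriol and 5 in HFHS, beside 2.27% and 5.36% of all genes tested. Dbp, an output factor of the clock, stood at 10.03, 10.27 and 10.20 with calcitriol, at 10.21, 10.51 and 10.67 in HFHS and at 10.96, 11.11 and 10.91 in CNT, a fall of 0.83 ± 0.12 (adjusted p = 0.00521) with calcitriol and of 0.53 ± 0.12 in HFHS. Nr1d1, a clock repressor, fell by 0.91 ± 0.18 (adjusted p = 0.0237) with calcitriol, and Bhlhe40, another, by 0.66 ± 0.13. The Nr1d1 call was lost without CNT replicate 1 or 2 or any single calcitriol replicate, at an adjusted p up to 0.0974. Core clock genes did not pass, with Arntl at 0.41 and Per2 at -0.01. The hour at which livers were taken is not given in the sources used here, and its part in these values cannot be told apart from the groups.

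The curcumin livers of the same series, given liposomes at the same weeks, allow a direct test of what is particular to calcitriol. No gene was called between calcitriol and curcumin livers by limma, with a lowest adjusted p of 0.142, and 1873 genes had an unadjusted p under 0.05. Mt2 stood at 12.14, 11.54 and 11.37 in curcumin livers and differed between calcitriol and curcumin by 0.76 ± 0.37 (adjusted p = 0.362). For Lss the difference was -0.24 ± 0.12 (adjusted p = 0.353), for Gstm1 -0.53 ± 0.14 (adjusted p = 0.201), for Fasn -0.25 ± 0.17 (adjusted p = 0.513), for Casc4 0.08 ± 0.10 (adjusted p = 0.743) and for Alas2 0.15 ± 0.13 (adjusted p = 0.583). Gpc1 had the widest gap of these, at 8.60, 8.70 and 8.59 in curcumin livers, a difference of -0.83 ± 0.13 (adjusted p = 0.142). None of the differences that remained, arose or moved back can therefore be called particular to calcitriol, and a p that misses the threshold does not show that both treatments act alike.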

How the data were processed

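RNA from flash-frozen whole livers was sequenced as 1 Illumina library per sample, 12 in all, 3 for each of 4 groups. The authors deposited 1 table of log2 expression values per sample, in which 23411 of 45792 genes were listed at 0 in every library. Per the submitters' processing notes, STAR 2.4.0d, DESeq2 1.8.1 and the GRCm38 build were used. The transformation behind the values, which run from -3.63 to 20.7, is not given in the sources used here. Counts were not used here, so depth is unknown and folds of low genes may be understated.

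From these values limma 3.58.1 (R 4.3.3) fitted 4 group means to all 12 libraries, with empirical Bayes variances (trend, robust). The p-values were adjusted by the Benjamini-Hochberg method over the 12637 genes at or above log2 of 10 in 3 or more libraries, with a threshold of 0.05. Tests are two-sided. Calcitriol and CNT libraries of the same number correlated in their deviations from the group means, at 0.205, 0.253 and 0.372 for replicates 1, 2 and 3, so a fit with the replicate number as a block was run. Calcitriol and CNT pairs of unlike number ran from -0.343 to 0.175. Calcitriol and HFHS libraries of the same number stood at -0.0386, 0.12 and 0.0224. What the number stands for is not stated in the titles. The scripts were tested on simulated data.

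The members and gene lists were chosen with earlier results of these data known. The genes named are the 12 largest rises and falls that were called against CNT with groups that do not overlap, 10 genes each that remained and arose, 6 that moved back, up to 4 called members of each list, and a short set of liver genes. Pir, the genes of the Gstm cluster beyond this rule, Saa1, Lcn2, Hba-a1, Hmgcs1, Nqo1 and other list members named with values were chosen after their values were seen. Some genes that enter the counts are not reported here by name. A list is described by its counts and its median, and the summed level is the log2 of the summed linear values of its genes. Symbols and gene coordinates are from GENCODE M21 (GRCm38).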

Additional observations from a re-analysis of the deposited data

How the results depend on the processing

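Calls moved with the processing. The 511 genes called in calcitriol against CNT all had groups that did not overlap. Leaving out 1 library could thus not change their direction, so the kept directions there are no test. Of the single-gene values recomputed under the alternatives, 2409 kept their side of the threshold, 468 were lost, 121 were gained and 5 changed sign, each in a gene that was not called. Col1a1 was -0.20 without calcitriol replicate 1 and ranged to 0.30. Cyp7a1 was -0.15 without CNT replicate 1 and -0.20 without calcitriol replicate 1, and ranged to 0.50. Gpnmb was -0.011 with quantile normalization and -0.00831 without replicate 3 of both groups, and ranged to 0.12. Leaving out 1 library gave 73 to 1142 genes for calcitriol against CNT, 135 to 3717 for HFHS against CNT and 4 to 2194 for calcitriol against HFHS, with 28 to 652 that remained, 2 to 204 that arose and 2 to 1632 that moved back.

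With no filter on low values, 328 genes were called in calcitriol against CNT and 141 remained. With only the groups compared in the fit, HFHS against CNT gave 13, calcitriol against HFHS 0, and 8 remained, 0 arose and 0 moved back. Quantile normalization gave 430 for calcitriol against HFHS and 96 that arose. Without HFHS replicates 1 and 3, the counts were 1187 for calcitriol against CNT, 68 for HFHS against CNT, 4 for calcitriol against HFHS, 52 that remained, 2 that arose and 2 that moved back. Without replicate 3 of calcitriol and CNT, an alternative chosen after seeing the data, they were 191 for calcitriol against CNT, 31 for calcitriol against HFHS, 124 that remained, 7 that arose and 15 that moved back. The causes were not tested, except that fits with fewer samples have less power by construction. The replicate block over all 12 libraries gave 627 genes in calcitriol against CNT, and the block in a fit of calcitriol and CNT alone, also chosen after seeing the data, gave 976. Among named genes the first block changed 16 calls of 160, of which 3 were lost (Ern1, Igfbp1 and Pcp4l1), and the second added 26 and lost 8. A list median moved by more than the spread between replicates in 24 cases and not in 673. Genes with small changes are limited by 3 libraries per group, and genes at low level by the unknown depth.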

Other observations

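Csf2rb and Tlr8, chosen here after their values were seen, passed against CNT under every alternative. Csf2rb, the shared receptor chain for GM-CSF and related cytokines, stood at 7.21, 7.26 and 7.45 with calcitriol, at 7.20, 6.95 and 7.29 in HFHS and at 6.66, 6.49 and 6.51 in CNT, a rise of 0.76 ± 0.10 (adjusted p = 0.00372) against CNT. Tlr8, an endosomal RNA sensor, rose by 0.77 ± 0.12 (adjusted p = 0.00806). Both were called in HFHS against CNT as well, at 0.60 and 0.42, and neither was called between calcitriol and HFHS. In each, every calcitriol liver lay above every CNT liver. The summed level of the Kupffer cell markers was higher as well, from 14.28 to 14.57 with calcitriol and from 13.76 to 14.07 in CNT, and its part in these rises was not tested.

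Hfe2, the hemojuvelin gene of hepatocytes that controls iron through hepcidin, stood at 9.88, 9.73 and 9.67 with calcitriol, at 9.49, 9.48 and 9.20 in HFHS and at 9.21, 9.12 and 9.28 in CNT. It rose by 0.56 ± 0.09 (adjusted p = 0.00814) against CNT, a call that passed under every alternative. Mid1ip1, which activates acetyl-CoA carboxylase, fell by 1.09 ± 0.14 (adjusted p = 0.00317) with calcitriol and by 0.85 ± 0.14 in HFHS. No gene of the interferon response (30 tested), of stellate cells (17), of cholangiocytes (11), of T and NK cells (11) or of B cells (12) was called with calcitriol against CNT. Over all genes tested 4.04% were called, so lists of this size would hold few calls in any case.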
